A study of Mus musculus with 8 samples.

Results

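Hedgehog signalling components were followed as 9 genes, listed in the files as gli1, gli2, gli3, ptch1, smo, hhip, boc, cdon and gas1, chosen by symbol among 22558 genes. They comprise the receptor Ptch1, the coreceptors Boc, Cdon and Gas1, the binding protein Hhip, the transducer Smo and the transcription factors Gli1, Gli2 and Gli3. All 9 passed the filter on low values that left 14847 genes for testing. The RNA-seq libraries came from mouse stromal cells, with 2 libraries in each of 4 groups. Cells positive for fibroblast activation protein (FAP), a surface protease of stromal fibroblasts, had been sorted from visceral adipose tissue, from skeletal muscle and from pancreas, where they are labelled as stellate cells. They were set against mouse embryonic fibroblasts (MEFs) sorted as FAP negative, cultured for 3 passages and sorted again. Strain, age and sex were not given in the sources used here, nor was the number of animals behind each library. The labels describe duplicate experiments, so p-values measure the spread between these pairs of libraries. FAP+ cells and MEFs differ in FAP status, in tissue, in stage and in culture together, and these cannot be told apart.

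In the absence of ligand the receptor Ptch1 keeps Smo inactive, and the Gli3 and Gli2 proteins are processed into repressors at the primary cilium. A Hedgehog ligand bound to Ptch1 and to Boc, Cdon or Gas1 releases Smo, which leads to active Gli proteins in the nucleus. Gli1, Ptch1 and Hhip are themselves transcribed in response to the signal, Gli1 as an activator and Ptch1 and Hhip as brakes on it. In adult mice Gli1 is known as a marker of mesenchymal cells around vessels and in many organs.

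Against MEFs, FAP+ cells had more Gli1 and Cdon mRNA in all 3 tissues, more Boc in adipose and muscle, more Gli2 in adipose and pancreas, and less Ptch1 in adipose. Gli1 was 19.4-fold higher in pancreas, 9.71-fold in adipose and 4.47-fold in muscle, and its adipose value rested in part on 1 library, as described below. With edgeR's quasi-likelihood test at an adjusted p below 0.05, 4 members rose and 1 fell in adipose, where 50.1% of all genes tested passed, 26.9% as higher and 23.2% as lower. In muscle 3 members rose, where 43.8% of all genes passed, 23.7% as higher and 20% as lower. In pancreas 3 rose, where 42.5% passed, 23.1% as higher and 19.4% as lower. The members' shares were thus near those of all genes. The median log2 fold change of the 9 members was 1.22 in adipose, 0.49 in muscle and 0.70 in pancreas, beside 0.05, 0.03 and 0.02 over all genes tested. The 3 comparisons share the MEF libraries. In bulk RNA, fewer cells with a transcript and less of it per cell cannot be told apart.

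Depth was 15516319 to 27759399 estimated fragments per library, and 15935 to 19720 genes had a value above 0. Levels are given as CPM, which relates each gene to the library total after trimmed-mean (TMM) scaling, for comparing libraries. FPKM, the fragments per length and depth that the authors deposited, serves for comparing genes. Fap itself had 28 and 34.4 CPM in adipose, 88.8 and 107 CPM in muscle and 55.4 and 65.6 CPM in pancreas, against 2.37 and 0.516 CPM in MEFs, in the direction of the sort. All 8 fibroblast markers examined stood at 1 FPKM or more in both libraries of every group. They summed to 6659 to 10689 FPKM in adipose, 9787 to 9897 in muscle and 6279 to 7992 in pancreas. Their sum in MEFs was 1248 to 1785 FPKM. Summed pancreatic acinar markers reached 78.2 to 154 FPKM in pancreas libraries, with all 6 at 1 FPKM or more, against 0.317 to 2.80 FPKM elsewhere. Summed epithelial markers were 66.4 to 194 FPKM in pancreas and 2.92 to 5.67 FPKM in adipose and muscle, against 60.4 to 78.2 FPKM in MEFs, with 5 of 5 at 1 FPKM or more in both pancreas libraries and 2 of 5 in MEFs. In MEFs the sum was nearly all Krt18 (21.9 and 33.2 FPKM) and Krt19 (37.3 and 44.2), while Epcam had 4.70 and 2.36 FPKM in pancreas, against 0.112 and 0.0481 in MEFs. Endothelial markers summed to 31.5 to 65.3 FPKM in adipose, 23.2 to 35.9 in muscle, 16.5 to 21.3 in pancreas and 1.17 to 1.75 in MEFs. All 6 stood at 1 FPKM or more in both adipose libraries and 0 in MEFs, while in muscle (20.6 and 25.4 FPKM) and pancreas (14.9 and 19.6 FPKM) Tek was the 1 gene that did. Cartilage markers summed to 2.41 to 8.44 FPKM in adipose, 33.4 to 57.3 in muscle and 3.48 to 5.13 in pancreas, against 185 to 287 in MEFs, where all 5 stood at 1 FPKM or more. The muscle sum was mostly Comp (54.6 and 27.78 FPKM), and Col2a1 had 0.584 and 0.161 FPKM in muscle, against 236 and 139 in MEFs. The part of these other cells in the results that follow was not tested.

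Adipose library 1 stood apart. Its TMM factor was 0.516, while the other 7 libraries had 0.889 to 1.31. Whole reads per gene could be recovered from the deposited RPKM values, and the bias-adjusted fragments were then compared with them. In adipose library 1 the estimated fragments of 5% of genes were 4.73 times the reads or more, and those of another 5% were 0.148 times the reads or less. In muscle library 2 the same limits were 3.34 and 0.666. Among the members, Gli1 had 10.3 fragments per read in adipose library 1 and 1.75 to 3.61 in the other 7 libraries. Gas1 had 0.261 there against 0.879 to 1.23 elsewhere, and Hhip had 0.128 against 0.445 to 0.657. The members' differences between adipose and MEFs are therefore given with this library, without it, and on the recovered reads. Without it, the numbers of members past the threshold against MEFs were 6 for adipose, 6 for muscle and 5 for pancreas. The share of all 15351 genes then tested that passed was 48.9% for adipose, 58.5% for muscle and 57.5% for pancreas.

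**Figure D1:**
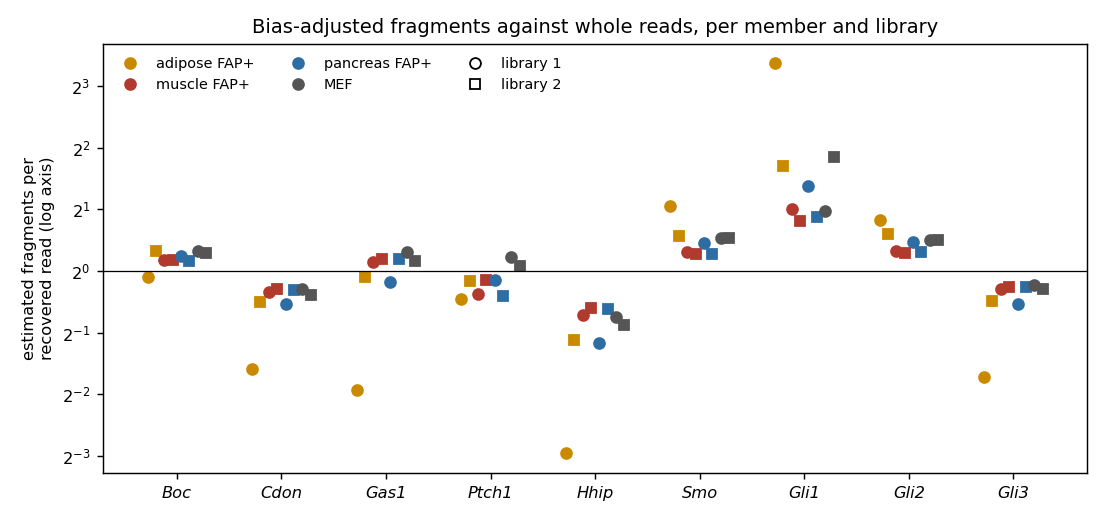
Estimated bias-adjusted fragments per whole read recovered from RPKM, on a log axis, for each of the 9 members (columns) in each of the 8 libraries (colour, group; circle, library 1; square, library 2). Adipose library 1 lies apart at 10.3 for Gli1, 0.261 for Gas1 and 0.128 for Hhip, while the line marks equal numbers.

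The coreceptors bind Hedgehog ligands at the cell surface and pass them to Ptch1. Boc differed between tissues as well as from MEFs. It had 191 and 141 CPM in adipose FAP+ cells, 58.5 and 74.1 CPM in muscle and 38.5 and 44.4 CPM in pancreas, against 30.2 and 20.7 CPM in MEFs. No 2 groups overlapped, and adipose was highest and MEFs lowest. Against MEFs, Boc rose 6.53-fold in adipose (log2 2.71 ± 0.32 SE, adjusted p = 0.000485) and 2.61-fold in muscle (log2 1.38 ± 0.30, adjusted p = 0.00859). In pancreas the log2 difference of 0.70 ± 0.30 did not pass (adjusted p = 0.0935). The adipose call was kept in all 19 alternative settings, with adjusted p up to 0.0193, and its log2 value was 2.48 without adipose library 1 and 2.55 on recovered reads. The muscle call was lost without muscle library 2 (log2 1.2, adjusted p = 0.072) or without MEF library 2 (log2 1.16, adjusted p = 0.0621). In pancreas Boc passed without adipose library 1 (log2 0.70, adjusted p = 0.0342) or 2 (log2 0.70, adjusted p = 0.0377), which enter this comparison only through the shared scaling and the pooled spread.

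Cdon, a relative of Boc in the immunoglobulin superfamily, rose in every tissue. It had 69.4 and 96.6 CPM in adipose, 113 and 121 CPM in muscle and 100.4 and 113 CPM in pancreas, against 33.4 and 22.5 CPM in MEFs. The libraries of every tissue lay above both MEF libraries. The log2 fold changes over MEFs were 1.57 ± 0.30 in adipose (2.97-fold, adjusted p = 0.0042), 2.06 ± 0.31 in muscle (4.18-fold, adjusted p = 0.00148) and 1.93 ± 0.30 in pancreas (3.81-fold, adjusted p = 0.00204). Leaving out any library kept all 3 calls, with log2 1.79 in adipose without adipose library 1. On recovered reads, Cdon had 251 and 233 read CPM in adipose, 248 and 258 in muscle and 238 and 244 in pancreas, against 74.8 and 52.8 in MEFs. The tissues then lay close together, and the log2 fold changes were 1.92, 1.99 and 1.92.

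Gas1 encodes a lipid-anchored coreceptor and was the member with the highest FPKM in every group, at a mean of 105 in adipose, 108 in muscle and 82.3 in pancreas, against 81.8 in MEFs. It had 162 and 510.2 CPM in adipose, 252 and 339 CPM in muscle and 182 and 224 CPM in pancreas, against 174 and 114 CPM in MEFs. The adipose libraries lay at both ends of the range over tissues, and library 1 lay between the MEF libraries. With edgeR Gas1 passed in no comparison on estimated fragments, with log2 1.22 ± 0.52 over MEFs in adipose (adjusted p = 0.0853), 1.04 ± 0.52 in muscle (adjusted p = 0.143) and 0.49 ± 0.52 in pancreas (adjusted p = 0.472). DESeq2 called it in adipose (log2 1.27, adjusted p = 0.0304). Without adipose library 1 the adipose value was 1.83 (adjusted p = 0.00215), and without adipose library 2 it was 0.15. On recovered reads Gas1 had 744 and 929.9 read CPM in adipose, 391 and 518 in muscle and 336 and 341 in pancreas, against 257 and 183 in MEFs. No 2 groups overlapped on that measure, and Gas1 rose over MEFs in adipose (log2 1.93, adjusted p = 0.00061) and muscle (log2 1.05, adjusted p = 0.0112). In muscle Gas1 also passed on fragments without adipose library 1 (log2 1.03, adjusted p = 0.0114) or 2 (log2 1.03, adjusted p = 0.0126).

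**Figure D2:**
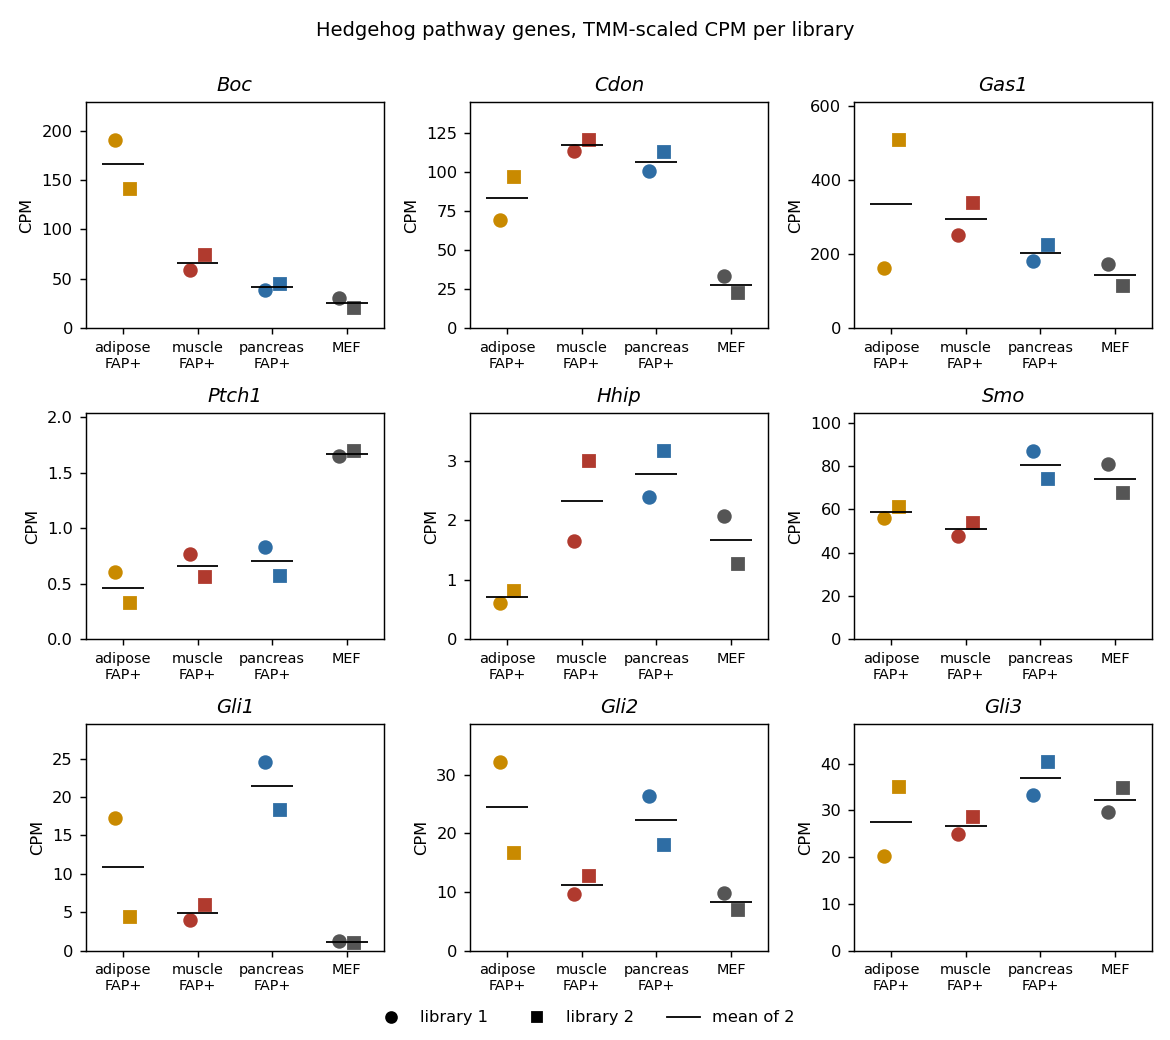
TMM-scaled CPM (vertical axes, from 0) of the 9 members in each library, by group (circle, library 1; square, library 2; line, mean of the 2). Boc is highest in adipose, at 191 and 141 CPM, and lowest in MEFs, at 30.2 and 20.7 CPM, while Cdon lies above MEFs in all 3 tissues and Ptch1 below them.

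Ptch1, the receptor, was low in every group, with 7.99 to 16.2 fragments per FAP+ library. It had 0.610 and 0.324 CPM in adipose, 0.765 and 0.558 CPM in muscle and 0.834 and 0.572 CPM in pancreas, against 1.65 and 1.70 CPM in MEFs. Every FAP+ library lay below both MEF libraries, and the tissues overlapped one another. Ptch1 fell 3.68-fold in adipose (log2 -1.88 ± 0.53, adjusted p = 0.0209). The log2 differences of -1.35 ± 0.51 in muscle (adjusted p = 0.0642) and -1.25 ± 0.50 in pancreas (adjusted p = 0.08) did not pass. With edgeR on only the groups compared, Ptch1 did not pass in adipose (log2 -1.77, adjusted p = 0.067). In that setting it passed in muscle (log2 -1.32, adjusted p = 0.0247) and pancreas (log2 -1.21, adjusted p = 0.0468). The adipose call was lost without adipose library 2 (log2 -1.46, adjusted p = 0.0787), MEF library 1 (log2 -1.92, adjusted p = 0.0778) or MEF library 2 (log2 -1.85, adjusted p = 0.0809). Ptch1 passed in muscle without adipose library 1 (log2 -1.36, adjusted p = 0.0374) or 2 (log2 -1.35, adjusted p = 0.0393), and in pancreas without adipose library 1 (log2 -1.25, adjusted p = 0.0487). Without adipose library 1 the adipose value of Ptch1 was -2.35 (adjusted p = 0.0185), and on recovered reads Ptch1 fell in adipose (log2 -1.76, adjusted p = 0.00987).

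Hhip, which binds ligands and holds them from the receptor, was also scarce, with 7.95 to 69.6 fragments per library. It had 0.610 and 0.811 CPM in adipose, 1.66 and 3.00 CPM in muscle and 2.40 and 3.17 CPM in pancreas, against 2.07 and 1.27 CPM in MEFs. Adipose lay below the other 3 groups, and muscle overlapped MEFs. No difference of Hhip passed in edgeR on estimated fragments with TMM scaling of all libraries. The nearest was pancreas over adipose, log2 1.94 ± 0.51 (adjusted p = 0.0546), which passed with upper quartile scaling (log2 2.08, adjusted p = 0.0421), with DESeq2 (log2 1.91, adjusted p = 0.0307) and without adipose library 2 (log2 2.18, adjusted p = 0.0414). Against MEFs the log2 value of Hhip in adipose was -1.21 ± 0.50 (adjusted p = 0.0763), -1.03 without adipose library 1 (adjusted p = 0.183) and -0.30 on recovered reads (adjusted p = 0.551). On recovered reads the difference of pancreas over adipose was 0.99 (adjusted p = 0.113) and Hhip had 5.68 and 3.02 read CPM in adipose, overlapping muscle and MEFs.

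Smo, the membrane transducer that Ptch1 restrains, was among the 4 members with the highest FPKM in every group. It had 55.9 and 61.4 CPM in adipose, 47.8 and 53.9 CPM in muscle and 87.1 and 74.0 CPM in pancreas, against 80.8 and 67.8 CPM in MEFs. Adipose and muscle lay below MEFs, and pancreas overlapped them. The log2 differences from MEFs were -0.34 ± 0.24 in adipose, -0.55 ± 0.24 in muscle and 0.12 ± 0.24 in pancreas, and none passed (adjusted p = 0.262, 0.101 and 0.72). In adipose the value was -0.27 without adipose library 1 (adjusted p = 0.369) and -0.86 on recovered reads (adjusted p = 0.0571). In muscle Smo passed without adipose library 1 (log2 -0.55, adjusted p = 0.038) or 2 (log2 -0.55, adjusted p = 0.0394).

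Gli1 showed the largest differences among the Gli factors. It had 17.3 and 4.38 CPM in adipose, 3.95 and 5.88 CPM in muscle and 24.6 and 18.3 CPM in pancreas, against 1.23 and 0.971 CPM in MEFs. All FAP+ libraries lay above both MEF libraries, and pancreas lay above all others. Over MEFs the log2 fold change was 3.28 ± 0.64 in adipose (adjusted p = 0.00455), 2.16 ± 0.62 in muscle (adjusted p = 0.0253) and 4.28 ± 0.66 in pancreas (adjusted p = 0.00186). The pancreas call was kept in all 19 alternative settings, with adjusted p up to 0.025. The muscle call was lost without muscle library 1 (log2 2.40, adjusted p = 0.061) or 2 (log2 1.83, adjusted p = 0.133), and without MEF library 1 (log2 2.31, adjusted p = 0.103) or 2 (log2 2.02, adjusted p = 0.13).

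In adipose the level of Gli1 depended on the library and on the measure. Without adipose library 1 its log2 fold change over MEFs was 1.99 (adjusted p = 0.00273), and without library 2 it was 3.96. On recovered reads Gli1 had 22 and 33 reads in adipose, 31 and 78 in muscle and 182 and 192 in pancreas, against 21 and 9 in MEFs. Scaled, these were 2.01 and 2.27 read CPM in adipose, 3.41 and 5.82 in muscle and 15.4 and 17.4 in pancreas, against 1.15 and 0.490 in MEFs. The 4 groups did not overlap on that measure and ran upward in the order MEFs, adipose, muscle, pancreas. On reads the fold over MEFs was 2.60 in adipose (adjusted p = 0.0328), 5.63 in muscle (adjusted p = 0.00194) and 19.8 in pancreas (adjusted p = 0.000124). Acinar markers were also highest in pancreas, as given above, and their part in its Gli1 level was not tested.

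Gli2, the main activator early in the response, had 32.2 and 16.7 CPM in adipose, 9.63 and 12.7 CPM in muscle and 26.4 and 18.0 CPM in pancreas, against 9.78 and 6.86 CPM in MEFs. Adipose and pancreas lay above both MEF libraries, and muscle overlapped them. Gli2 rose 2.93-fold in adipose (log2 1.55 ± 0.40, adjusted p = 0.0144) and 2.67-fold in pancreas (log2 1.42 ± 0.40, adjusted p = 0.0231), while the log2 difference in muscle was 0.43 ± 0.39 (adjusted p = 0.403). The adipose call was lost without MEF library 2 (log2 1.32, adjusted p = 0.0938), and its value was 1.01 without adipose library 1 (adjusted p = 0.0337) and 0.93 on recovered reads (adjusted p = 0.0214). The pancreas call was lost without pancreas library 1 (log2 1.11, adjusted p = 0.139), MEF library 1 (log2 1.67, adjusted p = 0.0649) or MEF library 2 (log2 1.19, adjusted p = 0.131).

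Gli3, the main source of Gli repressor, had 20.1 and 35.0 CPM in adipose, 24.9 and 28.5 CPM in muscle and 33.4 and 40.4 CPM in pancreas, against 29.6 and 34.8 CPM in MEFs. The log2 differences from MEFs were -0.22 ± 0.31, -0.27 ± 0.31 and 0.20 ± 0.31 in that order of tissues, and none passed. Both muscle libraries lay below both MEF libraries, and the other tissues overlapped MEFs. Without adipose library 2, which left the library that stood apart, Gli3 fell in adipose against MEFs (log2 -0.69, adjusted p = 0.0427). Without adipose library 1 the adipose difference was 0.12 (adjusted p = 0.697), and on recovered reads it was 0.22 (adjusted p = 0.384).

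**Figure D3:**
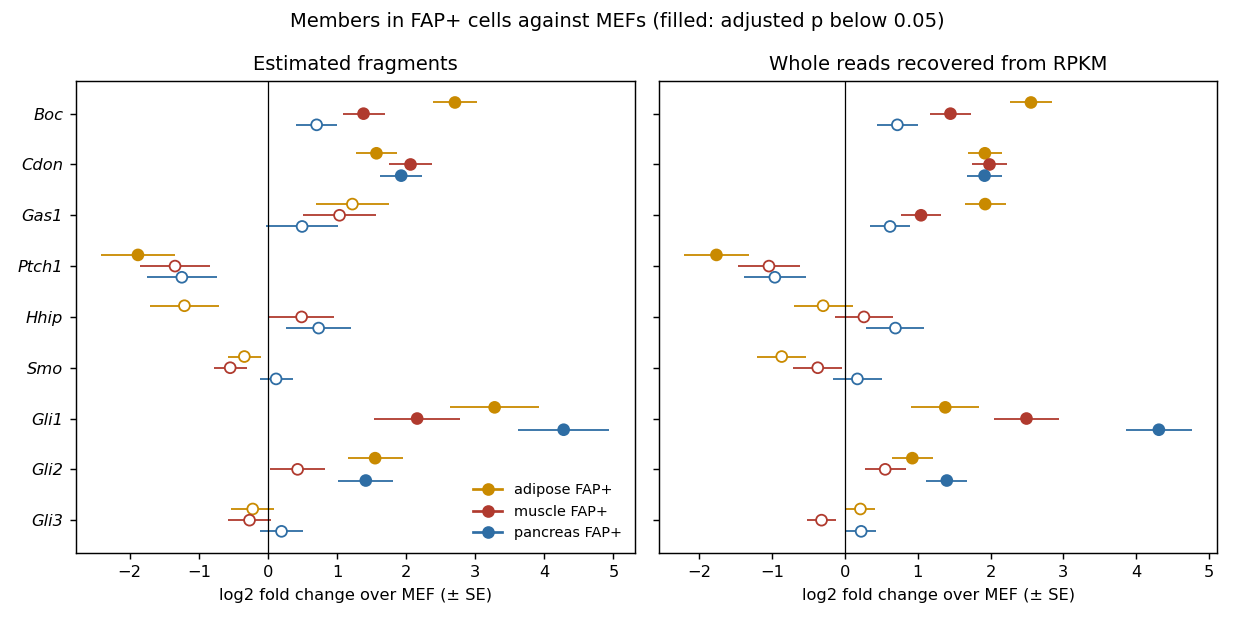
Log2 fold change over MEFs with its standard error (horizontal axis) for each member in each tissue, on estimated fragments (left) and on whole reads recovered from RPKM (right); filled points passed at an adjusted p below 0.05. Gli1 in adipose is 3.28 on the left and 1.38 on the right, and Gas1 in adipose passes only on the right.

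Shares within a library do not depend on how libraries are scaled. Of the summed FPKM of the 3 Gli factors, Gli1 made up 39.7% and 15.3% in adipose, 19.7% and 23.2% in muscle and 46.0% and 40.1% in pancreas, against 6.35% and 4.97% in MEFs. Gli3 made up 20% to 54.1% in the FAP+ libraries, against 66.2% and 76.1% in MEFs. On recovered reads, without correction for length, adipose had 22 and 33 reads of Gli1 beside 869 and 1205 of Gli3. Muscle had 31 and 78 beside 481 and 795, pancreas 182 and 192 beside 933 and 930, and MEFs 21 and 9 beside 1153 and 1409. Among the 3 coreceptors Boc took 41.3% and 15.3% in adipose, 12.1% and 11.8% in muscle and 10.8% and 10.3% in pancreas, against 10.2% and 10.6% in MEFs. Adipose library 1 had 2674 reads of Boc beside 8123 of Gas1, and adipose library 2 had 2780 beside 13535. Cdon took 14.4% and 11.8% in muscle and 17.2% and 16.1% in pancreas, against 6.92% and 7.05% in MEFs, and in adipose 9.22% and 6.43%. By mean FPKM, Gas1 led in each group and Ptch1 and Hhip were the lowest 2 in the FAP+ tissues, while Gli1 and Hhip were the lowest 2 in MEFs. In muscle Cdon, at 18.5 FPKM, overlapped Boc, at 17.1 FPKM, Boc overlapped Smo, and Gli1 overlapped Gli2. In adipose Gas1 overlapped Boc, Smo overlapped Cdon, Ptch1 overlapped Hhip, and Gli1, Gli2 and Gli3 overlapped one another. In MEFs Cdon overlapped Boc and Gli3.

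**Figure D4:**
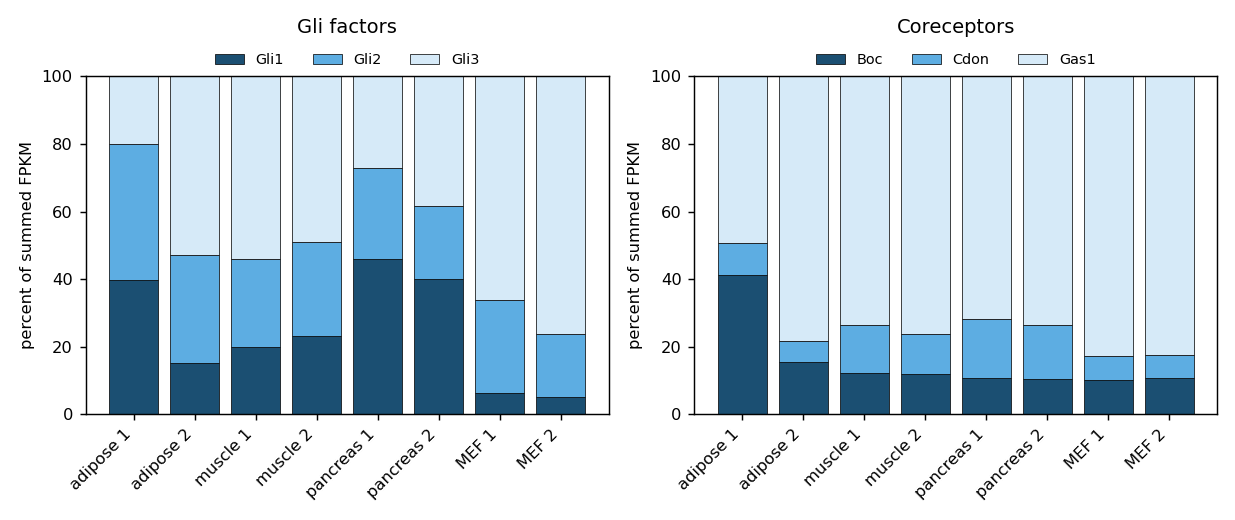
Percent of summed FPKM (vertical axes, 0 to 100) taken by each Gli factor (left) and by each coreceptor (right) in each of the 8 libraries. Gli1 makes up 15.3% to 46.0% of Gli FPKM in FAP+ libraries, against 6.35% and 4.97% in MEFs, and adipose library 1 differs from library 2 in both panels. All shares rest on bias-adjusted values.

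Between FAP+ tissues few members passed on estimated fragments, near the shares of all genes. With 2 libraries per group, a member that did not pass may still differ. In muscle against adipose 1 member fell, Boc, where 6.12% of all genes passed, 2.34% as higher and 3.78% as lower. Boc was 2.50-fold lower in muscle (log2 -1.32 ± 0.30, adjusted p = 0.046), and this call was lost when any library but adipose library 2 was left out, with log2 -1.10 without adipose library 1 (adjusted p = 0.0585), -1.16 without muscle library 1 (adjusted p = 0.34), -1.5 without muscle library 2 (adjusted p = 0.208), and -1.30 to -1.33 without a pancreas or MEF library (adjusted p = 0.0725 to 0.113). In pancreas against adipose 1 member fell, again Boc, where 9.05% of all genes passed, 3.32% as higher and 5.73% as lower. Boc was 4.0-fold lower in pancreas (log2 -2.00 ± 0.31, adjusted p = 0.0103), and not past the threshold without pancreas library 1 (log2 -1.89, adjusted p = 0.122) or 2 (log2 -2.11, adjusted p = 0.103). In pancreas against muscle edgeR called 0 of 9 members, where 3.67% of all genes passed, 1.54% as higher and 2.14% as lower. At an unadjusted p below 0.05 there were 3 members, and the share of all genes at that threshold was not computed. DESeq2 called 1, and its count over all genes is given in the closing section. The median log2 difference of the members was -0.19 in muscle against adipose, 0.42 in pancreas against adipose and 0.25 in pancreas against muscle.

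The member that DESeq2 called was Gli1, higher in pancreas than in muscle by log2 2.12 ± 0.60 with edgeR (adjusted p = 0.119) and 2.14 with DESeq2 (adjusted p = 0.0116). It also passed on recovered reads (log2 1.82, adjusted p = 0.0332) and in edgeR without adipose library 1 (log2 2.12, adjusted p = 0.00466) or 2 (log2 2.11, adjusted p = 0.00412). Against adipose, Gli1 in pancreas differed by log2 1.00 ± 0.58 (adjusted p = 0.312), by 2.28 without adipose library 1 (adjusted p = 0.00945), by 0.31 without adipose library 2 and by 2.93 on reads (adjusted p = 0.00294). In muscle against adipose the sign itself turned, from log2 -1.12 ± 0.59 on fragments (adjusted p = 0.284) to 1.11 on reads (adjusted p = 0.115). Without adipose library 2 the fragment value of Gli1 was -1.80 (adjusted p = 0.00539) and without library 1 it was 0.16. Gas1 in pancreas against adipose was -0.73 ± 0.52 (adjusted p = 0.42), -1.34 without adipose library 1 (adjusted p = 0.0323) and -1.30 on reads (adjusted p = 0.0128). Without adipose library 2, Gli2 in muscle against adipose was -1.51 (adjusted p = 0.0109) and Gli3 in pancreas against adipose was 0.88 (adjusted p = 0.0318).

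On recovered reads, 6 members passed against MEFs in adipose, where 56.6% of 14364 genes passed. In muscle 4 passed, beside 55.7% of all genes, and in pancreas 3, beside 53.5%. Between tissues 1 member passed in muscle against adipose (13.5% of all genes), 3 in pancreas against adipose (22.5%) and 1 in pancreas against muscle (6.02%).

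Of the ligands, Shh and Ihh were near 0 and were not tested. Shh had 0 to 0.156 CPM over all 8 libraries and Ihh 0.0520 to 0.534 CPM. Dhh, the ligand known from Sertoli and Schwann cells, had 0.686 and 1.18 CPM in adipose, 0.0638 and 0.172 CPM in muscle and 0.261 and 0 CPM in pancreas, against 1.5 and 1.88 CPM in MEFs. Dhh fell in muscle (log2 -3.70 ± 0.97, adjusted p = 0.0171) and pancreas (log2 -3.64 ± 0.96, adjusted p = 0.0184), while adipose differed by -0.83 ± 0.78 (adjusted p = 0.398). Both are fitted values near the floor of 3 fragments, which is 0.191 and 0.129 CPM in the muscle libraries and 0.156 CPM in both pancreas libraries. The muscle call was lost without muscle library 1 (log2 -3.27, adjusted p = 0.129) or 2 (log2 -4.62, adjusted p = 0.0927), and both were lost without MEF library 1 (adjusted p = 0.0613 in muscle and 0.0666 in pancreas) or 2 (adjusted p = 0.0786 and 0.0821). The pancreas call was lost without pancreas library 2 (log2 -2.68, adjusted p = 0.0705), and without pancreas library 1, which left the library at 0, the fitted value was -8.30 (adjusted p = 0.0134).

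Among 9 genes for ligands and their release, 6 were tested. In adipose 1 rose and 2 fell, in muscle 2 rose and 3 fell, and in pancreas 2 fell. The falls in muscle and pancreas include Dhh, which passed the filter through the MEFs. The shares of all genes that passed were 50.1%, 43.8% and 42.5%. Disp1, which exports lipid-modified ligand, rose in adipose (log2 1.31 ± 0.36, adjusted p = 0.0192) and muscle (log2 1.40 ± 0.36, adjusted p = 0.0169). The adipose call of Disp1 was lost without MEF library 1 (adjusted p = 0.0653) or 2 (adjusted p = 0.115) and on recovered reads (log2 0.56, adjusted p = 0.0535). Its muscle call was lost without muscle library 1 (adjusted p = 0.0764) or 2 (adjusted p = 0.0812) and without MEF library 1 (adjusted p = 0.0618) or 2 (adjusted p = 0.105). The medians over the 6 were -0.89 in adipose, -1.62 in muscle and -0.24 in pancreas. When adipose library 1 was left out, 7 were tested and 2 passed in adipose, 6 in muscle and 4 in pancreas, beside the shares of all genes given above for that setting. On recovered reads 1, 5 and 3 of 6 passed, where 56.6%, 55.7% and 53.5% of all genes did.

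Glypicans are cell-surface proteoglycans that modify reception of the ligand. Gpc3, which binds Hedgehog ligands and limits signalling in mouse, rose by log2 2.50 ± 0.30 in adipose (adjusted p = 0.000564) and 2.35 ± 0.30 in pancreas (adjusted p = 0.00081). In muscle its log2 value was 1.13 ± 0.29 (adjusted p = 0.0164), a call lost without muscle library 1 (adjusted p = 0.0509) or 2 (adjusted p = 0.128) and without MEF library 1 (adjusted p = 0.0576) or 2 (adjusted p = 0.0995). Gpc4 fell by 1.5 ± 0.31 on the log2 scale in adipose (adjusted p = 0.00545) and by 2.05 ± 0.31 in pancreas (adjusted p = 0.0017). In muscle it fell by 1.35 ± 0.30 (adjusted p = 0.00933), which was lost without muscle library 1 (adjusted p = 0.0831) or 2 (adjusted p = 0.0556) or MEF library 1 (adjusted p = 0.0664).

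Of 21 genes of signal transduction, 5 rose in adipose, 5 rose and 1 fell in muscle, and 4 rose and 1 fell in pancreas. Over all genes 50.1%, 43.8% and 42.5% passed in that order of tissues. Evc, part of the ciliary complex that carries the signal from Smo, rose by log2 2.24 ± 0.34 in adipose (adjusted p = 0.00157), 1.84 ± 0.34 in muscle (adjusted p = 0.00395) and 2.12 ± 0.34 in pancreas (adjusted p = 0.00227). Leaving out any library kept these 3 calls of Evc. Its partner Evc2 rose by log2 1.35 ± 0.23 in pancreas (adjusted p = 0.00271). In adipose Evc2 had log2 0.89 (adjusted p = 0.0135), a call lost without MEF library 1 (adjusted p = 0.0618) or 2 (adjusted p = 0.0799) and on recovered reads (log2 0.21, adjusted p = 0.525). The 1 gene that fell in muscle and in pancreas was Cul3, a ubiquitin ligase scaffold that acts on Gli proteins with the adaptor Spop. Cul3 fell by 1.27 ± 0.34 on the log2 scale in muscle (adjusted p = 0.0178) and by 1.55 ± 0.34 in pancreas (adjusted p = 0.00869). Without MEF library 1 its log2 value was -0.74 in muscle (adjusted p = 0.118) and -1.0 in pancreas (adjusted p = 0.0558). The muscle call of Cul3 was also lost without muscle library 1 (adjusted p = 0.0904) or 2 (adjusted p = 0.12), and the pancreas call without pancreas library 1 (adjusted p = 0.0694) or 2 (adjusted p = 0.0568). The medians of the list were 0.00 in adipose, 0.34 in muscle and 0.37 in pancreas. Without adipose library 1, 5 of the 21 passed in adipose, 11 in muscle and 9 in pancreas, beside 48.9%, 58.5% and 57.5% of all genes. On recovered reads 4, 9 and 9 of the 21 passed, beside 56.6%, 55.7% and 53.5% of all genes.

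Of 23 primary cilium genes, 9 rose and 3 fell in adipose, 6 rose in muscle and 5 rose in pancreas, with list medians of 0.26, 0.36 and 0.18. Over all genes 50.1%, 43.8% and 42.5% passed in that order, and 56.6%, 55.7% and 53.5% on recovered reads. Arl13b, a ciliary GTPase, rose in adipose (log2 1.89 ± 0.34, adjusted p = 0.00334), with 2.66 on recovered reads. Bbs4, of the complex that carries membrane proteins to the cilium, rose by log2 1.18 in adipose (adjusted p = 0.0174), 1.28 in muscle (adjusted p = 0.0142) and 1.27 in pancreas (adjusted p = 0.0151). All 3 calls of Bbs4 were lost without MEF library 1 (adjusted p = 0.0762, 0.0686 and 0.0711) or 2 (adjusted p = 0.0925, 0.0811 and 0.0852). The muscle call was also lost without muscle library 1 (adjusted p = 0.098) and the pancreas call without pancreas library 2 (adjusted p = 0.1). When adipose library 1 was left out, 10 of the 23 passed in each of the 3 tissues, beside 48.9%, 58.5% and 57.5% of all genes, and on recovered reads 9 passed in each.

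Of 20 reported Hedgehog targets outside the members, 5 rose and 6 fell in adipose, 4 rose and 6 fell in muscle, and 4 rose and 5 fell in pancreas. The shares of all genes that passed were 50.1%, 43.8% and 42.5%. Ntn1, which encodes the guidance factor netrin, rose by log2 3.85, 4.24 and 2.21 in adipose, muscle and pancreas (adjusted p = 7.02e-05, 6.64e-05 and 0.000614). The transcription factor gene Osr2 rose by log2 3.48, 3.81 and 4.72 in the same order (adjusted p = 0.000337, 0.000278 and 0.000133). Foxc2, a forkhead factor of the embryonic mesoderm, fell by 4.37 on the log2 scale in muscle (adjusted p = 0.000159) and by 4.72 in pancreas (adjusted p = 0.000123). Ccnd1, cyclin D1, fell by 3.40 in adipose (adjusted p = 0.000851) and by 2.11 in pancreas (adjusted p = 0.00641), the second of which was lost without pancreas library 1 (adjusted p = 0.0534) or 2 (adjusted p = 0.0601). Ntn1 was lower in pancreas than in muscle (log2 -2.02 ± 0.26, adjusted p = 0.00858), where leaving out either muscle library (adjusted p = 0.0725 and 0.0776) or either pancreas library (adjusted p = 0.133 and 0.0917) lost the call. In the tissues not named for them, Foxc2 and Ccnd1 also lay below MEFs. As each library was left out in turn, Foxc2 in adipose had log2 -3.16 to -2.83 and Ccnd1 in muscle -1.94 to -1.33. List medians were -0.36 in adipose, -0.37 in muscle and -0.62 in pancreas. With adipose library 1 left out, 14 of the 20 passed in adipose, 14 in muscle and 15 in pancreas, beside 48.9%, 58.5% and 57.5% of all genes. On recovered reads 8 rose and 10 fell in adipose, 5 rose and 8 fell in muscle, and 6 rose and 8 fell in pancreas. Of all genes, 56.6%, 55.7% and 53.5% passed on reads.

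The deposited FPKM scale carries no TMM factor, and on log2(FPKM + 1) it understates changes of low genes. Among genes at 1 FPKM or more in at least 2 libraries, the median log2 difference from MEFs was -0.93 for adipose, -0.59 for muscle and -0.47 for pancreas, while without this filter it was -0.02, 0 and 0. With the filter, limma called Gli1 higher in adipose (0.95, adjusted p = 0.0255) and pancreas (2.44, adjusted p = 0.00054). Boc passed in adipose (1.49, adjusted p = 0.00612), and Cdon in muscle (1.33, adjusted p = 0.0367) and pancreas (1.34, adjusted p = 0.039). The calls of Cdon and Gli2 in adipose (0.41 and 0.25), of Gli1 and Boc in muscle (0.71 each) and of Gli2 in pancreas (0.69) were not made on this scale. Smo fell in adipose (-1.39, adjusted p = 0.0112) and muscle (-1.12, adjusted p = 0.0331). Relative to the median of all genes these Smo values were -0.46 and -0.53, and those of Boc and Gli1 in adipose were 2.42 and 1.88. The sign of Gli2 in muscle (-0.14), of Gas1 in adipose (-0.10), of Gli3 in pancreas (-0.25) and of Smo in pancreas (-0.35) was the opposite of that on TMM-scaled fragments, and none of these 4 passed on either scale. Without the filter limma no longer called Gli1 in adipose (adjusted p = 0.0633), Cdon in muscle (adjusted p = 0.085) or pancreas (adjusted p = 0.0895), or Smo in muscle (adjusted p = 0.0644), while the other calls were kept. Ptch1 and Hhip were left out by the filter. Without it Ptch1 fell in adipose (-0.64, adjusted p = 0.000653), muscle (-0.53, adjusted p = 0.00114) and pancreas (-0.49, adjusted p = 0.00145), and Hhip had -0.31 (adjusted p = 0.0726), -0.04 (adjusted p = 0.84) and 0.06 (adjusted p = 0.722), with the opposite sign in muscle to that on TMM-scaled fragments.

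Promoters are shown for the members that passed against MEFs and have an entry in the RefSeq table used (build GRCm38.p6, 250 bases before to 50 after each gene's start). The table held 7 of the 9 members. The authors' build was mm9, and nothing was joined by position. Capitals mark the letters GGGCGG or CCGCCC, the core of a GC box on either strand. Gli2 on chromosome 1, chr1:119053570-119053869, minus strand, and Ptch1 on chromosome 13, chr13:63565686-63565985, minus strand, each hold 1 such match. Cdon on chromosome 9, chr9:35451826-35452125, plus strand, holds 0.
Gli2: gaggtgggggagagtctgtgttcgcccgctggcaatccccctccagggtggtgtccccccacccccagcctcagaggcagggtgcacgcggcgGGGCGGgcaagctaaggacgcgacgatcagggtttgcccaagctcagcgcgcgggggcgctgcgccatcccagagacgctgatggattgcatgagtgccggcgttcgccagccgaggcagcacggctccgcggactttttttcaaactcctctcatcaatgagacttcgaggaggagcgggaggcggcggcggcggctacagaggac
Ptch1: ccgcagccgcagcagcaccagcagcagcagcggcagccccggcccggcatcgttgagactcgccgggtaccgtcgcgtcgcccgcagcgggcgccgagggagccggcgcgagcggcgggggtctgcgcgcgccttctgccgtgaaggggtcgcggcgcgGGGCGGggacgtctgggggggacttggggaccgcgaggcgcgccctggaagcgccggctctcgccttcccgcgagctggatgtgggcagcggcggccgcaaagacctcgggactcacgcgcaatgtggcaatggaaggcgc
Cdon: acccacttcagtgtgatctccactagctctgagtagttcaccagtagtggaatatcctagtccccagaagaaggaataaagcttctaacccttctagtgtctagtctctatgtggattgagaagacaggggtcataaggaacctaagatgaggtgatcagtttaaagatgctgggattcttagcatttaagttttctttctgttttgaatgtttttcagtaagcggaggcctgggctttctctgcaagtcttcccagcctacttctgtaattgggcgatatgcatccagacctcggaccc
GC content was 67.3% for Gli2, 76.3% for Ptch1 and 44.7% for Cdon, beside a median of 52.7% over the 32851 promoters of the table. The window of Ptch1 holds 47 CG dinucleotides, that of Gli2 28 and that of Cdon 3, beside a median of 7. A GC box was present in 35.7% of all promoters. The Gli consensus GACCACCCA, or its reverse complement TGGGTGGTC, does not overlap the GC box letters and was found in 0.253% of all promoters and in 0 of the 7 members' windows.

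Among 10099 genes, those whose log2 CPM ran most like each member's across the 8 libraries are given, up to 3 a member, as a description in which libraries share their scaling. Cdon ran most like Reck (Pearson r = 0.997 on fragments and 0.996 on reads), Fgd4 (0.995 and 0.984) and Plscr4 (0.993 and 0.994). Gas1 ran most like Hoxc4 (0.972 and 0.981), Olfml2b (0.970 and 0.898) and Tmem87b (0.970 and 0.972). Boc ran like Naglu (0.993 and 0.682), Atf4 (0.987 and 0.955) and Dennd5a (0.983 and 0.973), and Gli1 like Chpf (0.991 and 0.931), Orf19 (0.986 and 0.944) and Unc5a (0.980 and 0.948). Gli2 ran like Tbkbp1 (0.983 and 0.847) and Dock6 (0.978 and 0.972), and Ptch1 like Fbxo44 (0.993 and 0.938), Spryd4 (0.983 and 0.941) and Pold2 (0.983 and 0.748). Smo ran like Galns (0.962 and 0.976), Fgfr3 (0.961 and 0.490) and Pdzrn3 (0.943 and 0.581), and Hhip like Repin1 (0.970 and 0.780), Ccdc66 (0.966 and 0.450) and Foxj3 (0.948 and 0.776). For Gli3 the values on reads were -0.25 for Srp54a and -0.041 for Chmp1a, beside 0.974 and 0.949 on fragments.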

How the data were processed

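RNA was extracted with Purelink, amplified with MessageAmp and made into libraries with an Illumina mRNA kit, per the labels' protocols. Tools named in the submitters' processing notes are TopHat2, Bowtie2, edgeR and HTSeq, beside the build mm9, with neither versions nor roles. The authors deposited bias-adjusted expected counts (estimated fragments), made by a program not given in the sources used here. The authors also deposited FPKM for the same genes and RPKM in a separate table. Among their columns, 6 matched none of the 8 samples and were not used.

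Expected counts were rounded, filtered with filterByExpr, scaled by TMM and tested across 14847 genes in all 8 libraries with edgeR 4.0.16 (R 4.3.3; 4 residual degrees of freedom, biological coefficient of variation 33.2%), with Benjamini-Hochberg adjustment at 0.05. limma 3.58.1 and DESeq2 1.42.0 served as alternatives, with other scalings and filters, a replicate block and each library left out; where that leaves 1 library in a group, it is assumed to vary like the other groups. The steps of RPKM values gave whole reads for 20968 of 22609 genes. That 100% of values above 0 were whole within 0.01 is no check, because each gene's step was fitted to make its values whole. Testing these reads was chosen after seeing the data. Of the steps, only the edgeR fit was tested on simulated data, for muscle against MEFs. Floors of 3 fragments cover counting error only. Use of strand in counting was not stated. Members and lists were chosen with earlier results of these data known. The text names all members, Shh, Ihh, Dhh and Fap, genes among the 4 called list genes of largest change with at least 5 CPM in the higher group, and up to 3 genes most like each member; some items that this rule names are not reported here. List symbols matched the files as current symbols for 150 genes and as older ones for 3.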

Additional observations from a re-analysis of the deposited data

How the results depend on the processing

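Counts of members that passed moved as follows. Counts over all genes moved between settings as well, and are given below for some of them. Whether the members moved more than all genes was not tested. Where a setting lacks a count over all genes, its member count cannot be read as particular to the members. Against MEFs, adipose had 3 with limma on log2(FPKM + 1), with or without a filter of 1 FPKM. Muscle had 5 with only the groups compared and 1 with limma at a pseudocount of 1 or 0.1, and pancreas had 5 with only the groups compared. In muscle against adipose, 0 passed with upper quartile scaling, no filter, only the groups compared, the replicate block or limma at any setting. In pancreas against adipose, 2 passed with upper quartile scaling or DESeq2, 0 with only the groups compared or limma without a filter, and 3 on recovered reads. In pancreas against muscle, 1 passed with DESeq2, with limma after the filter or on recovered reads, and 2 with only the groups compared. Leaving out 1 library gave 3 to 6, 1 to 6 and 2 to 5 members in adipose, muscle and pancreas against MEFs, 0 to 3 in muscle and in pancreas against adipose, and 0 to 1 in pancreas against muscle.

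Over all genes, adipose against MEFs gave 7445 calls, 4588 with only the groups compared. Muscle against adipose gave 908 calls, 1951 with DESeq2, 74 with only the groups compared, 534, 455 and 495 with limma (pseudocount 1, 0.1, and 1 with the filter) and 1932 on recovered reads. Pancreas against adipose gave 1344, 2304 with DESeq2, 305 with only the groups compared, 872 with limma after the filter and 3233 on recovered reads. Pancreas against muscle gave 545, 1005 with DESeq2, 1752 with only the groups compared and 864 on recovered reads. Leaving out 1 library gave 4321 to 9491, 3382 to 8987 and 3506 to 8830 calls in adipose, muscle and pancreas against MEFs, 51 to 5410 in muscle against adipose, 8 to 5077 in pancreas against adipose and 58 to 1205 in pancreas against muscle. The causes were not tested. The share of calls that were higher against MEFs was 53.6%, 54.2% and 54.4% in adipose, muscle and pancreas, and 21.8%, 35.3% and 39.8% with limma on log2(FPKM + 1). In muscle and pancreas against adipose it was 38.2% and 36.7%, and 62.0% and 66.9% with limma.

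The replicate block gave 5, 3 and 3 members against MEFs and 0, 1 and 0 between tissues (Boc in muscle against adipose log2 -1.31, adjusted p = 0.0672). The log2 CPM difference of library 1 from library 2 within a group was correlated between groups, over genes. The r values were -0.156 to 0.347, the highest for adipose with pancreas. The labels state no pairing, and the numbers were not taken as pairs. Signs reversed on the FPKM scale in adipose against MEFs for Bbs1 (-0.065 at a pseudocount of 0.1), Bbs2 (-0.0386 at 1, with and without the filter, and -0.0489 at 0.1) and Evc2 (-0.212 at 1, with and without the filter, and -0.239 at 0.1). Evc in pancreas against adipose was 0.75 on recovered reads (adjusted p = 0.0364).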
